A study of Mus musculus with 12 samples.

Results

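The genes described here encode the nuclear-encoded subunits of oxidative phosphorylation, chosen by symbol. They are the mouse genes whose symbols begin with Ndufa, Ndufb, Ndufc, Ndufs, Ndufv, Uqcr, Cox4, Cox5, Cox6, Cox7, Cox8 or Atp5, together with Sdha, Sdhb, Sdhc and Sdhd, with the Ndufaf assembly factors left out. The array held a probe for 83 of them among 17332 genes with a symbol: 36 of complex I, 4 of complex II, 8 of complex III, 18 of complex IV and 17 of complex V. Of these, 80 passed the filter on dim probes and were tested among 23239 genes or transcripts, and all 80 were well above background on all 12 arrays. Cox4i2 was well above background on 2 of the 12 arrays, and Cox7b2 and Cox8c on 0, so these 3 were not tested. For a gene with several probes the brightest was used.

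Electrons from NADH enter the inner mitochondrial membrane at complex I and those from succinate at complex II, and pass through ubiquinone, complex III and cytochrome c to complex IV, where oxygen is reduced. Complexes I, III and IV pump protons, and complex V, the ATP synthase, uses the gradient to make ATP. Each complex except complex II also holds subunits encoded by mitochondrial DNA, which are not among the genes described here. The absorptive cells of the colon are known for their reliance on this pathway to oxidise butyrate made by bacteria.

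The 12 single-colour arrays, 2 in each of 6 groups, carried total RNA of snap-frozen colon from C57BL/6J males. The groups were wild type (WT), ATF6aKO and ATF6bKO, each without treatment (UT) or after 3 days of 3% dextran sulfate sodium (DSS), a polysaccharide given in drinking water that injures the colonic epithelium. ATF6a and ATF6b are transcription factors of the endoplasmic reticulum stress response, and the title of the study puts the knockouts in DSS colitis as its subject. The mice's age and how the knockouts were made are not given in the sources used here, nor is it said whether the arrays of a pair stand for different mice, so the p-values reflect how far these samples spread, possibly for technical reasons only. For the 4 WT samples the title and source name give the opposite treatment to the description and the treatment entry. They are named here by their titles, and no sign between them is read as an effect of DSS. Each genotype was hybridised on a slide of its own, so genotype and slide cannot be told apart.

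A level is the log2 signal of a gene's probe minus the log2 of that array's 75th percentile of signal. Differences were tested with limma over all 23239 genes, and a gene was called at a Benjamini-Hochberg adjusted p under 0.05. The 75th percentile ran from 246 to 1186 over the arrays, and 65.5% to 76.3% of probes were well above background. It differed by genotype without overlap, at 686 to 1186 on the WT, 449 to 620 on the ATF6aKO and 246 to 392 on the ATF6bKO arrays. Atf6 was lower by 3.92 on the log2 scale in ATF6aKO than in WT (SE 0.12, limma adjusted p = 4.52e-06). Atf6b was well above background on 1 of the 4 ATF6bKO arrays and at least 28.2-fold lower there than in WT (limma adjusted p = 0.000227). The bound takes the mean of the WT levels against, on each ATF6bKO array, the higher of the probe's own level and the lowest level of a probe well above background. In the other knockout, the differences from WT were 0.34 for Atf6b (adjusted p = 0.676) and 0.22 for Atf6 (adjusted p = 0.155). The WT arrays titled UT correlated with each other less than the arrays of the other 5 pairs did, at 0.976 over all genes against 0.984 to 0.992. The colon's own markers were present, with Aqp8 well above background on all 12 arrays.

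The 83 genes lie on 19 chromosomes, at most 9 of them on the same one. RefSeq promoter windows (GRCm38.p6, from 250 bases before to 50 after a transcript start) were found for 68 of the 83. These motifs, known from promoters of mitochondrial genes were searched on both strands: GCGCATGCGC, which nuclear respiratory factor 1 binds and which reads the same on both strands, CCGGAAG, which ETS family factors such as GABP bind, and AAGATGGCG, which YY1 binds. No match of these motifs in the genes described here overlapped another. CCGGAAG was in a window of 17 of the 68 genes (25%) and in 9.93% of all 27025 genes with a window. AAGATGGCG was in 7 (10.3%, against 1.64%), and GCGCATGCGC in 4, which were Atp5g2, Atp5k, Cox6a1 and Uqcrc1 (5.88%, against 1.07%). The 200 bases before the start are shown for 5 genes to which the comparisons below return: 4 with a motif, and Cox7a2l, in which none of the 3 was found. They read 5′ to 3′ along the gene, and capitals mark a motif, written CTTCCGG where CCGGAAG lies on the other strand.
Atp5k, chr5:108434400-108434599, minus strand: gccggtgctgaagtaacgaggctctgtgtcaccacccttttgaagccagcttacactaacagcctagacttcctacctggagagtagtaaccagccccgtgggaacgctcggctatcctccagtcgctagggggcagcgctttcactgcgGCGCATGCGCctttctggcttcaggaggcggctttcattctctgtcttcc
Cox6a1, chr5:115348959-115349158, minus strand: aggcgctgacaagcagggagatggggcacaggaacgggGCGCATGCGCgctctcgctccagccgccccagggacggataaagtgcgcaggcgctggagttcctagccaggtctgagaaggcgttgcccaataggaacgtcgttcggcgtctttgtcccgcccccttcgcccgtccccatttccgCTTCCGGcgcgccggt
Cox6b1, chr7:30626115-30626314, minus strand: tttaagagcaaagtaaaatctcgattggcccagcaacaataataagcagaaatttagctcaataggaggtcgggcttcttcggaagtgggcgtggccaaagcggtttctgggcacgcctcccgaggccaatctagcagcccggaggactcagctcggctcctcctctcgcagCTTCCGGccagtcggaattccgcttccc
Atp5j, chr16:84834977-84835176, minus strand: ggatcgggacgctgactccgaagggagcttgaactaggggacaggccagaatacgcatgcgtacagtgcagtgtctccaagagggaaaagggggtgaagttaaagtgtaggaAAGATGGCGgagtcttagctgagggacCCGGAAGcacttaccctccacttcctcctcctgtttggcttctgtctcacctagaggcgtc
Cox7a2l, chr17:83514334-83514533, minus strand: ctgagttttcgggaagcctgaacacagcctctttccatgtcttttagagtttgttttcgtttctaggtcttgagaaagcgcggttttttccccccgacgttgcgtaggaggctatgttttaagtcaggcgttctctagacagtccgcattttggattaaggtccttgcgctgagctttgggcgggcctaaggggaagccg

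Across the 8 knockout arrays, the subunit genes were measured at nearly the same level whether or not the mice had received DSS. Over both knockouts, with genotype in the fit, 1 of the 80 was called between DSS and UT and it was lower in DSS, whereas 29.1% of all genes tested were called and 15.8% were called lower. The median difference of the 80 was -0.01, as it was over all genes (-0.01). The difference was under 0.5 in size on the log2 scale for 79 of the 80 and for 15900 of the 23239 genes tested. The 95% interval of the difference lay within 0.5 either way for 70 of the 80 and within 1 for 78. Before adjustment, p was under 0.05 for 7 of the 80 and for 42.3% of all genes. In whole colon, fewer cells of a type and less RNA per cell cannot be told apart. Levels of a gene ranged over the 8 arrays by a median of 0.43 among the 80 and of 0.99 among all genes tested. The range was under 1 for 97.5% of the 80, for 50.8% of all genes tested, and for 82.7% of the 836 genes whose mean level was at or above the lower quartile of the 80, which include members of the set themselves.

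The called gene was Cox7a2l, whose product is known as a factor of supercomplexes of complexes III and IV and is not a constant subunit of either. Whether it acts so in these mice was not tested. Its level was 3.80 and 3.98 on the ATF6aKO UT arrays and 3.45 and 3.53 on the ATF6aKO DSS arrays. It was 3.86 and 3.52 on the ATF6bKO UT arrays and 3.24 and 3.06 on the ATF6bKO DSS arrays. Within each knockout both DSS arrays were below both UT arrays. Over both knockouts it fell by 0.47 on the log2 scale, or 1.38-fold (SE 0.11, 95% interval -0.73 to -0.21, limma adjusted p = 0.0209). In the WT arrays it was 4.14 and 4.13 under the title UT and 3.67 and 3.79 under the title DSS, a difference of -0.41 that was not called (adjusted p = 0.0995). Its call over the knockouts was lost when ATF6aKO UT replicate 2, ATF6aKO DSS replicate 1 or ATF6bKO DSS replicate 2 was left out, where the adjusted p reached 0.0628, and without ATF6aKO DSS replicate 2 it was joined by Ndufab1 and Ndufs1.

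Complex II, succinate dehydrogenase, had all 4 genes tested. Sdha, the flavoprotein that oxidises succinate, was at 2.52 and 2.45 in ATF6aKO UT, 2.26 and 2.39 in ATF6aKO DSS, 2.23 and 2.09 in ATF6bKO UT and 1.92 and 1.81 in ATF6bKO DSS. Sdhd, a membrane anchor, was at 5.83 and 5.92 in ATF6aKO UT, 5.20 and 5.58 in ATF6aKO DSS, 5.99 and 5.85 in ATF6bKO UT and 5.72 and 5.62 in ATF6bKO DSS. For both genes the DSS arrays lay below the UT arrays of the same knockout, without overlap. Neither was called: the difference was -0.23 for Sdha (SE 0.09, limma adjusted p = 0.0879) and -0.37 for Sdhd (SE 0.12, adjusted p = 0.052). Sdhb, the iron-sulfur subunit, differed by -0.19 (adjusted p = 0.27) and Sdhc, the other anchor, by -0.08 (adjusted p = 0.585).

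In complex I, 0 of 36 were called over both knockouts and p was under 0.05 before adjustment for 4. The complex I gene with the largest difference was Ndufab1, the mitochondrial acyl carrier protein, at -0.33 (SE 0.10, limma adjusted p = 0.0529). A second Ndufab1 probe, less bright, differed the other way, by 0.13. Ndufs1, a core iron-sulfur subunit, differed by -0.28 (adjusted p = 0.0664). The other two, Ndufa2 and Ndufb7, differed the other way, by 0.21 (adjusted p = 0.0971) and 0.20 (adjusted p = 0.106). In complex III, 0 of 8 were called and none had p under 0.05 before adjustment. Its largest difference was -0.28 for Uqcrfs1, the Rieske iron-sulfur protein (adjusted p = 0.211). In complex V, 0 of 17 were called and none had p under 0.05 before adjustment, and the differences lay between -0.20 for Atp5c1, the gamma subunit of the catalytic head, and 0.13. Sdhd, Ndufab1 and Ndufs1 were called, together with Cox7a2l, when only probes well above background on every array were tested. That is a count of 4 of the 80, beside 36.5% of all genes then tested, and their differences were unchanged.

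**Figure D1:**
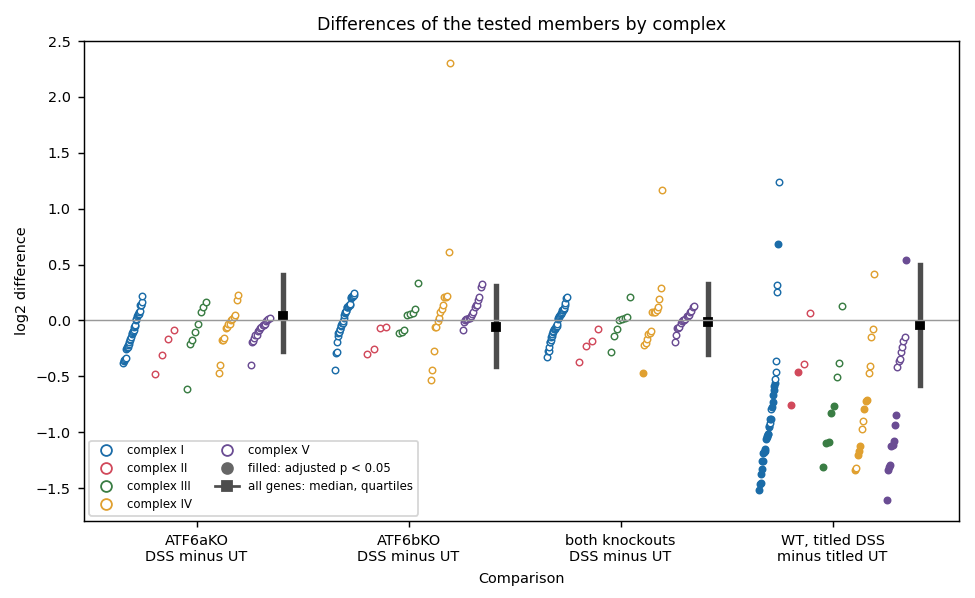
Log2 difference between DSS and UT arrays for each of the 80 tested genes (points, coloured by complex, filled where the limma adjusted p was under 0.05), in each knockout, over both, and between WT arrays by title. Grey bars give the quartiles and squares the median of all genes tested. Over both knockouts 1 point is filled, against 52 in WT.

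Within a single knockout no subunit gene was called. In ATF6aKO, limma called 0 of 80, beside 6.33% of all genes tested (before adjustment, 3 of 80 and 23.9%), and the median difference was -0.09, against 0.04 over all genes. In ATF6bKO it called 0 of 80, beside 12.9% (before adjustment, 2 of 80 and 28.2%), and the median was 0.05, against -0.06 over all genes. The DSS arrays were both below the UT arrays for 30 of the 80 in ATF6aKO (31% of all genes) and for 15 in ATF6bKO (37%), and both above for 10 (36.2%) and 31 (26.5%). With 2 arrays a group, the 95% interval lay within 1 either way for 73 of the 80 in ATF6aKO and 77 in ATF6bKO, and within 0.5 for 12 and 8. The difference between the knockouts in their response was called for 0 of 80 and for 0% of all genes tested (limma, with p under 0.05 before adjustment for 1 of 80 and for 8% of all genes). Uqcrfs1 was that 1 gene: its response was -0.61 in ATF6aKO, and the ATF6aKO response minus the ATF6bKO response was -0.66 (SE 0.28, adjusted p = 0.611). Leaving out a WT array of the title UT leaves that group with 1 array assumed to vary like the others. That changed the estimated spread but not the differences in the knockouts. Whether Uqcrfs1 (-0.61) and Cox7c (-0.47) in ATF6aKO, and Cox7a2l (-0.54) in ATF6bKO, were called depended on that spread.

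Of the 3 isoforms of complex IV known from heart and skeletal muscle that were tested, Cox6a2 and Cox8b were highest on the same array. Cox7a1 was highest on another. Cox6a2, the striated muscle form of subunit VIa, lay between -4.39 and -2.59 on 11 arrays and at 0.82 on ATF6bKO DSS replicate 2. Its partner, ATF6bKO DSS replicate 1, was at -3.19, and the ATF6bKO UT arrays were at -3.42 and -3.56. Cox8b, the form of subunit VIII found in muscle and brown fat, was at 0.96 on that array and between -1.76 and 0.27 on the other 11. Cox7a1, the muscle form of subunit VIIa, was highest on WT titled UT replicate 1, at 5.95, against 5.18 on replicate 2 of that title. On ATF6bKO DSS replicate 2 it was at 4.92, within the 4.65 to 5.10 of the other knockout arrays. Cox6a2 differed by 2.31 between DSS and UT in ATF6bKO (SE 0.99, limma adjusted p = 0.168), and by 0.30 without that array (adjusted p = 0.738). Without the partner instead, it differed by 4.31 and was called (adjusted p = 0.000787), as was its difference between the knockouts' responses (ATF6aKO minus ATF6bKO, -4.28). Cox8b differed by 0.62 with the array (adjusted p = 0.534) and by -0.15 without it.

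Several skeletal muscle genes were high on the same array. Of the 11 in a list of skeletal and cardiac muscle markers 9 were tested, and their summed level, in units of the array's 75th percentile, was 25.4 and 119.8 on the 2 ATF6bKO DSS arrays and between 9.31 and 52.1 on the other 10. Tnnc2, a fast muscle troponin, was at 5.04 there and between -3.39 and -1.35 elsewhere. Tnni2, its inhibitory partner, was at 4.59 there and at or below -0.25 elsewhere. Mb, the oxygen store myoglobin, was at 0.97 there and at or below -5.50 on the other 11, and was well above background on 3 arrays. Others stood out less or not at all there. Ckm, muscle creatine kinase, was at -0.35, against -2.87 on ATF6bKO DSS replicate 1 and -0.58 on WT titled UT replicate 2, its next highest. Actc1, cardiac actin, was at 5.22, within the 2.68 to 5.43 of the other arrays. Squamous epithelial markers, which the end of the bowel can bring, also differed, with a summed level of 5.82 and 31.8 on the ATF6bKO DSS arrays against 1.86 to 6.95 elsewhere (6 of 8 tested). Their part in the result was not tested. The ubiquitous forms showed no such array: Cox6a1 was at 9.17 and 9.33 on the ATF6bKO DSS arrays, and Cox8a at 7.32 and 7.48. Cox6b2, the testis form of subunit VIb, lay between -1.12 and -0.06 on all 12 arrays, and Cox4i1, the form of subunit IV found in most tissues, between 7.18 and 7.92.

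**Figure D2:**
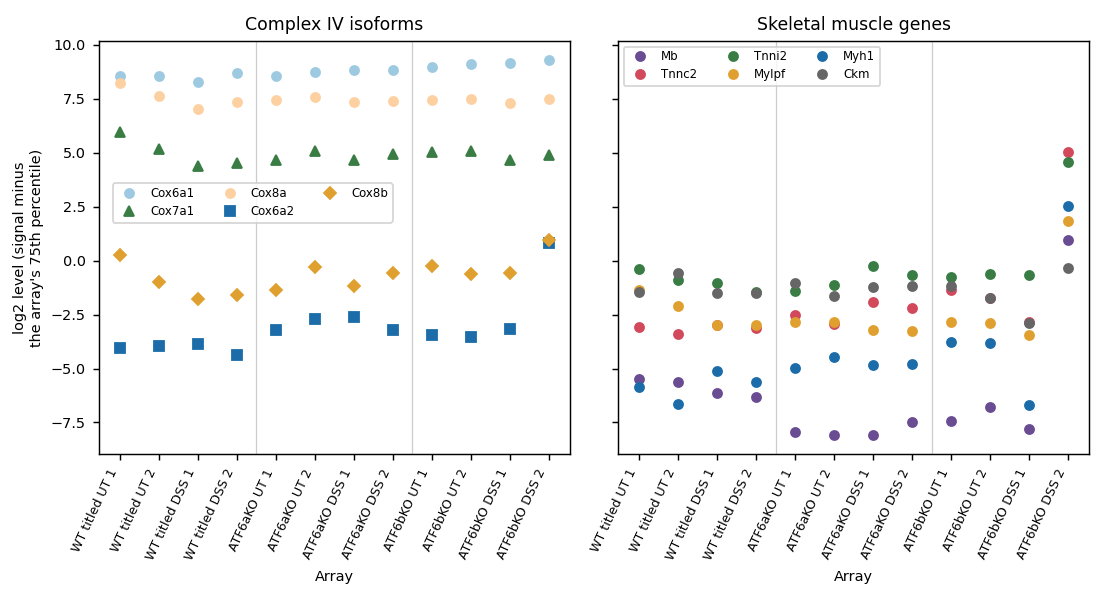
Log2 level on each of the 12 arrays of 5 complex IV isoform genes (left) and of 6 skeletal muscle genes (right). Points of different genes come from different probes, so only the values of the same gene are to be compared. Cox6a2 is at 0.82 and Tnnc2 at 5.04 on ATF6bKO DSS replicate 2, where Cox7a1 is at 4.92.

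Other genes of mitochondrial energy metabolism were described from lists chosen for this pathway, over both knockouts. Among 22 regulators of mitochondrial biogenesis and mitochondrial DNA, 13 fell and 0 rose, with a median of -0.48. They included Twnk, the helicase of mitochondrial DNA (-1.01, SE 0.12), Ppara, a fatty acid receptor of the nucleus (-0.97, SE 0.15), and Polg2, a subunit of the mitochondrial DNA polymerase (-0.74, SE 0.13), with limma adjusted p-values of 0.00257, 0.00535 and 0.00865. Of 40 assembly factors of the complexes, 9 fell and 0 rose (median -0.20), among them Taco1, a translational activator for the COX1 subunit (-0.54), Ndufaf6 (-0.48) and Coa6, a copper chaperone of complex IV (-0.41). Of 13 genes of ubiquinone synthesis, cytochrome c and electron transfer flavoprotein, 5 fell and 0 rose (median -0.22). Coq8a, a kinase-like protein of ubiquinone synthesis, fell by 1.77 (SE 0.27), Pdss1 by 0.64, Coq9 by 0.62, Etfa by 0.45 and Coq2 by 0.33. Beside these counts stand the 15.8% of all genes called lower and 13.3% called higher.

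Of 78 mitochondrial ribosomal proteins 12 fell and 1 rose (median -0.14), which is close to the background share of 15.8% called lower. Mrps9 fell by 0.81, Mrps31 by 0.79 and Mrpl49 by 0.64, and Mrps6 rose by 0.49. Of 23 genes of pyruvate oxidation and the TCA cycle 5 fell and 0 rose (median -0.17), with Pdhb, a subunit of pyruvate dehydrogenase, falling by 0.58, its kinase Pdk2 by 0.50, Idh3a by 0.49, Suclg2 by 0.38 and Suclg1 by 0.34. Of 21 genes of glycolysis, its regulators and the transport of glucose and lactate, 5 rose and 0 fell (median 0.13). Hk3, a hexokinase of leukocytes, rose by 1.998 and Pfkfb3, which makes the activator of phosphofructokinase, by 1.15. Hk2 rose by 0.66, the transcription factor Hif1a by 0.57 and Aldoa by 0.39. Of 13 carriers of ATP and metabolites 1 rose, Ckmt1, a mitochondrial creatine kinase (0.60), and 0 fell. Marker genes of other cells moved in the same comparison: 13 of 13 neutrophil genes rose, 18 of 19 cell cycle genes and 10 of 10 crypt base genes fell, while Bub1 rose by 0.78. Of 15 absorptive colonocyte genes 1 rose, Cdh17, and 3 fell, Aqp8 (-0.99), Guca2b (-1.25) and Scnn1b (-1.64). The summed neutrophil level was 0.81 to 1.27 on the knockout UT arrays, 4.92 and 5.99 on the ATF6aKO DSS arrays and 29.57 and 29.59 on the ATF6bKO DSS arrays. Their part in the result was not tested. Without ATF6bKO DSS replicate 2, 19.2% of all genes were called, 8 of the 22 biogenesis regulators and 2 of the 40 assembly factors fell, and the lower counts were 3 of 13 electron carriers, 2 of 23 TCA genes and 5 of 78 mitochondrial ribosomal proteins.

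Between the WT arrays the subunit genes differed widely and mostly one way. Of the 80, 50 were called lower under the title DSS than under the title UT and 2 higher, beside 31.7% of all genes called, 17% lower and 14.7% higher. The median difference was -0.87 for the 80 and -0.04 over all genes. By the treatment entry in place of the title, the same values turn sign, with 50 higher and 2 lower in DSS. Both arrays titled DSS were below both titled UT for 69 of the 80, against 34.1% of all genes, and above them for 6, against 30.2%. The counts rest on the spread of all 12 arrays: with only the 4 WT arrays in the fit, 0 of the 80 were called by limma, beside 2.74% of all genes, with 72 of the 80 differences still negative. The call also depended on single arrays, with 33 called without WT titled UT replicate 1, beside 23.5% of all genes. Without WT titled DSS replicate 2, 16 of 80 were called, beside 13.1%, and without WT titled DSS replicate 1, 7 of 80, beside 12.8%, so that the count was then no higher than the background share.

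In complex I, 27 of 36 were called lower and 1 higher, with a median of -0.95. Ndufs8, a core subunit that carries iron-sulfur clusters, was at 3.95 and 3.35 under the title UT and 2.16 and 2.24 under the title DSS, and between 2.38 and 3.01 on the knockout arrays. It differed by -1.45 (SE 0.21, limma adjusted p = 0.00303). Ndufa2 and Ndufb2, accessory subunits, differed by -1.52 and -1.46. The called gene in the other direction was Ndufa8, an accessory subunit facing the intermembrane space, at 3.31 and 3.69 under the title UT and 4.02 and 4.34 under the title DSS, a difference of 0.68 (SE 0.19, adjusted p = 0.0245). Ndufa10 was at 1.23 on WT titled UT replicate 1 and between 2.43 and 3.37 on the other 11 arrays, and its difference of 1.24 was not called (adjusted p = 0.0552). In complex II, Sdhd differed by -0.75 (adjusted p = 0.0403) and Sdha by -0.46 (adjusted p = 0.048), while Sdhb (-0.39) and Sdhc (0.07) were not called. The Sdhd call was lost under 13 of 21 alternatives and the Sdha call under 18. The second Sdha probe differed the other way, by 0.32.

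In complex III, 5 of 8 were called lower (median -0.80). Uqcrb, a small subunit at the ubiquinone site, was at 7.35 and 6.06 under the title UT and 5.26 and 5.53 under the title DSS, a difference of -1.31 (SE 0.35, limma adjusted p = 0.0239). Uqcrh, the hinge protein, differed by -1.09 and Uqcr10 by -1.09. In complex IV, 7 of 15 were called lower (median -0.79). Cox6b1, a subunit facing the intermembrane space, was at 5.28 and 4.41 under the title UT and 3.50 and 3.52 under the title DSS, and between 4.14 and 4.47 on the knockout arrays. It differed by -1.33 (SE 0.25, adjusted p = 0.00674). Cox7b differed by -1.20 and Cox7a2 by -1.17, and the isoforms Cox7a1 (-1.12), Cox6b2 (-0.79) and Cox8a (-0.72) were also called. Cox6a1 (-0.08), Cox4i1 (-0.47), Cox8b (-1.32) and Cox6a2 (-0.15) were not.

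In complex V, 9 of 17 were called lower and 1 higher (median -0.85). Atp5k, subunit e of the membrane part, was at 6.65 and 5.91 under the title UT and 4.79 and 5.09 under the title DSS, and between 5.61 and 5.82 on the knockout arrays. It differed by -1.34 (SE 0.24, limma adjusted p = 0.00543). Atp5mpl, another small membrane subunit, was at 7.80 and 6.40 under the title UT and 5.43 and 5.56 under the title DSS, a difference of -1.60 (SE 0.36). Atp5j2, subunit f, differed by -1.31. Atp5g3, which encodes the ring-forming subunit c, was the one called higher, by 0.54 (SE 0.18, adjusted p = 0.0462), a call lost under 15 of 21 alternatives, while Atp5g2, another gene for the same protein, differed by -1.30 and was called lower. Of the genes whose promoters are shown, Atp5k and Cox6a1, both with GCGCATGCGC, differed by -1.34 and -0.08, and Atp5j, with both other motifs, by -1.08. Atp5k also has CCGGAAG after the start, outside the bases shown. The 4 genes with GCGCATGCGC lay between -1.34 and 0.13. Their median was -0.69, against -0.90 over the 63 with a window and without it. The 7 genes with AAGATGGCG lay between -1.32 and -0.77, with a median of -1.08, against -0.84 over the 60 with a window and without it. The median was -0.83 over the 17 tested genes with CCGGAAG in a window and -0.91 over the 50 with a window and without it.

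Much of this difference came with WT titled UT replicate 1. Relative to the mean of the 8 knockout arrays, the median of the 80 genes was 0.94 on that array and 0.29 on WT titled UT replicate 2. It was -0.35 and -0.10 on WT titled DSS replicates 1 and 2, and between -0.11 and 0.08 on the knockout arrays. Replicate 1 was above replicate 2 of the title UT for 80% of the 80 genes, against 55.9% of all genes. Against the mean of the arrays titled DSS, the median was 1.15 for replicate 1 and 0.53 for replicate 2, and 74 of the 80 were above that mean in replicate 2. Without replicate 1, 33 of the 80 were called and all 33 were lower, beside 23.5% of all genes, with a median of -0.53. The 90 cytosolic ribosomal protein genes moved alike on these arrays, with medians of 0.80, 0.23, -0.47 and -0.29 on UT 1, UT 2, DSS 1 and DSS 2. The summed level of 15 absorptive colonocyte markers was 1317 and 1558 on the arrays titled UT, 798 and 1032 on those titled DSS and 528 to 894 on the knockout arrays. The summed level of 19 cell cycle genes was 105 and 136 under the title UT and 40.5 and 40.6 under the title DSS. In the knockouts it was 73.9 to 91.2 in UT and 27.3 to 41.2 in DSS. Their part in the result was not tested.

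**Figure D3:**
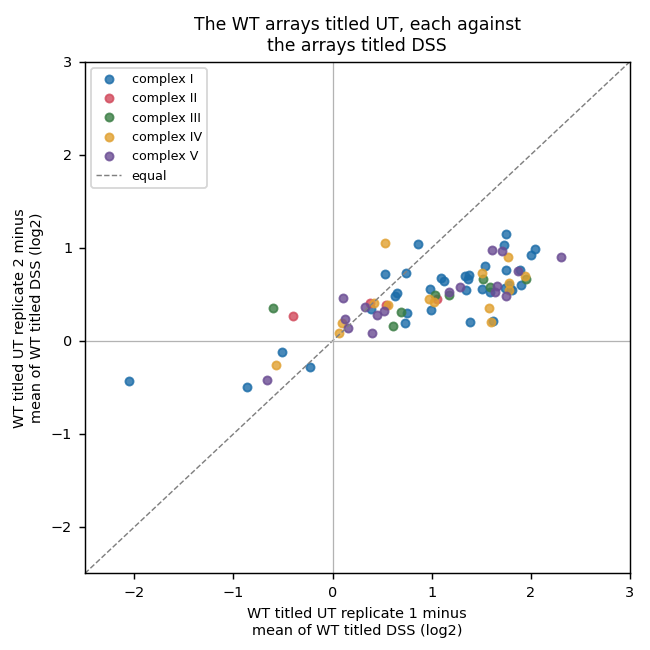
Level of each of the 80 tested genes on WT titled UT replicate 1 (horizontal) and replicate 2 (vertical), each minus the mean of the arrays titled DSS, on the log2 scale and coloured by complex. The medians are 1.15 and 0.53, and 64 of the 80 points lie below the dashed line of equality.

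The knockouts differed from WT, over both treatments together, for a smaller share of the subunit genes than of all genes. In ATF6aKO 18 of the 80 were called, 5 higher and 13 lower than WT, beside 50.3% of all genes tested (21.6% higher, 28.8% lower). In ATF6bKO 19 were called, 5 higher and 14 lower, beside 50.6% (24.4% higher, 26.2% lower). The medians were -0.16 and -0.13, against -0.07 and -0.02 over all genes. Each is a comparison with the same 4 WT arrays, and the weights of the WT groups are equal, so the conflict of their labels does not enter. The split by direction was turned in the authors' deposited values, where all genes were higher in the knockouts by a median of 0.57 and 0.61. There 47 were called higher and 1 lower in ATF6aKO, beside 63.4% of all genes called, and 46 and 1 in ATF6bKO, beside 62.3%. More were called lower than higher with quantile normalization (22 against 4 and 19 against 4), beside 50.9% and 52.5% of all genes called. So it was with median centring (9 against 5 and 14 against 4), beside 49.6% and 50.6%. With normexp background correction, 28 (5 higher, 23 lower) and 37 (6 higher, 31 lower) were called, beside 45.8% and 67.9%. Without WT titled UT replicate 2, 47 were called in each knockout, beside 60.2% and 59.1%, so that the share of the subunit genes and of all genes were then close. Without replicate 1, 29 were called in ATF6bKO, beside 52.8%. In ATF6aKO fewer were called without WT titled DSS replicate 2, ATF6aKO UT replicate 1 or 2, or ATF6aKO DSS replicate 1. Each of these leaves 1 array in a group, and the share of all genes called was then lower as well.

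Ndufa4 was lower in both knockouts. It is named for complex I and now known to belong to complex IV, but was counted with complex I here by its symbol. Its level was 6.56 and 5.26 on the WT arrays titled UT, 4.51 and 4.80 on those titled DSS, and between 3.92 and 4.23 on the 8 knockout arrays. All 8 lay below all 4 WT arrays, and the differences were -1.24 in ATF6aKO (limma adjusted p = 0.004) and -1.16 in ATF6bKO (adjusted p = 0.00531), both lost in the authors' deposited values. Ndufa8 went the other way, between 3.31 and 4.34 on the WT arrays and between 4.36 and 4.84 on the knockout arrays. It was higher by 0.74 in ATF6aKO (SE 0.13, adjusted p = 0.00221) and by 0.64 in ATF6bKO (SE 0.13, adjusted p = 0.00416). Among core subunits of complex I, Ndufs1 differed by -1.09 in ATF6aKO (adjusted p = 0.000425), and in ATF6bKO Ndufv2 differed by -1.06 (adjusted p = 0.00465). Under all 21 alternatives Ndufa8 stayed called in each knockout, as did Ndufs1 in ATF6aKO. In ATF6aKO the accessory subunits Ndufs4 (-0.82) and Ndufc1 (0.44) were also called. Being named for a single knockout follows the naming rule and does not by itself mark a difference between the knockouts. The group means of Ndufs4 were 4.02 (UT) and 4.16 (DSS) in ATF6aKO, and 3.99 (UT) and 4.11 (DSS) in ATF6bKO. Ndufc1 differed by 0.34 in ATF6bKO. Without WT titled UT replicate 1, Ndufs1 differed by -0.99 in ATF6aKO and -0.76 in ATF6bKO. Ndufs4 then differed by -0.52 and -0.56.

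Outside complex I, Sdha differed by -0.44 in ATF6aKO (SE 0.11, limma adjusted p = 0.00945) and by -0.84 in ATF6bKO (SE 0.11, adjusted p = 0.000508). In the authors' deposited values the signs of Sdha and Sdhd in ATF6aKO, of Uqcrc2 in each knockout, and of Cox7a2l and Atp5g1 in ATF6bKO turned. There the calls of Atp5pb in each knockout, of Ndufs4 and Uqcrb in ATF6aKO, and of Ndufv2, Sdha and Sdhb in ATF6bKO were lost. Sdhd (-0.46, in ATF6aKO) and Sdhb (-0.66, in ATF6bKO) were called in a single knockout each. Uqcrc2, a core protein of complex III, differed by -0.52 in each knockout. In ATF6aKO Uqcrb (-0.71) and, in the other direction, Uqcrc1 (0.57) were called, each lost under 15 of 21 alternatives. Cox5a, which is part of the matrix side of complex IV, differed by 0.36 and 0.37, calls that were each lost under 13 of 21 alternatives. In ATF6bKO, Cox6a1 was higher by 0.61 (SE 0.12, adjusted p = 0.00405) and Cox7c by 0.75 (lost under 13 of 21), while Cox7a2l was lower by 0.51 (SE 0.12, adjusted p = 0.00832). In complex V, Atp5g3 was higher by 0.51 and 0.65 and Atp5pb, subunit b of the stator, lower by 0.73 and 0.82, and Atp5g1 was lower by 0.46 in ATF6bKO.

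**Figure D4:**
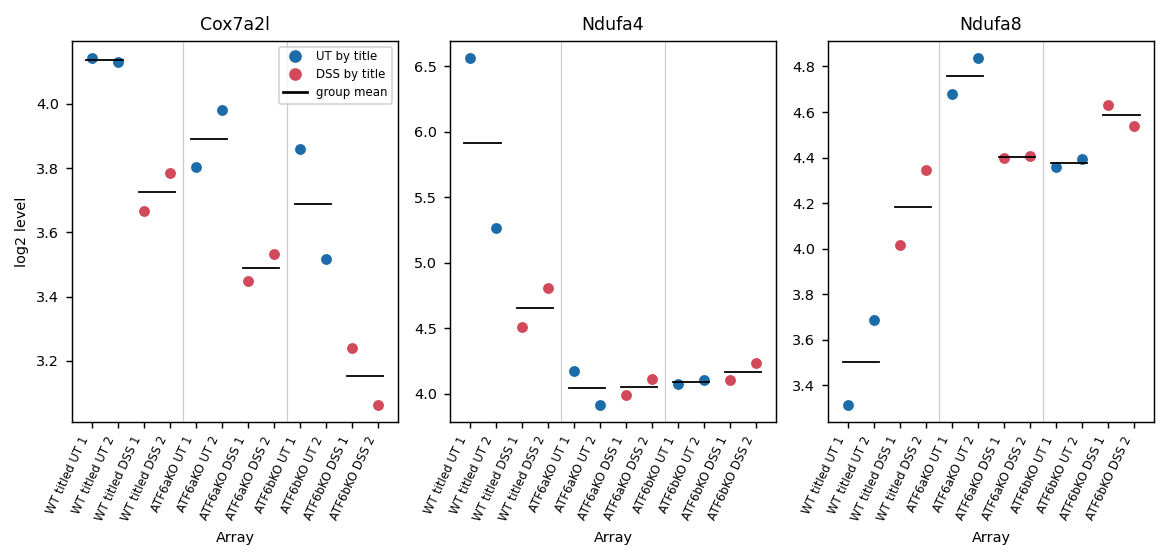
Log2 level of Cox7a2l, Ndufa4 and Ndufa8 on each of the 12 arrays, coloured by the treatment in the title, with bars at the group means. Each panel has its own vertical axis, which does not start at 0. Cox7a2l is lower on the DSS arrays of each knockout, Ndufa4 is below 4.51 on the 8 knockout arrays, and Ndufa8 is at or above 4.36 on them.

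Set against each other, the 2 knockouts differed in 0 of the 80 genes by limma, beside 5.38% of all genes tested (before adjustment, 9 of 80 and 24.5%), and the median difference was -0.01. The largest in complex II was Sdhb, higher by 0.50 in ATF6aKO than in ATF6bKO (SE 0.12, limma adjusted p = 0.0535). Its levels were 4.58 and 4.66 in ATF6aKO UT, 4.19 and 4.43 in ATF6aKO DSS, 4.16 and 3.84 in ATF6bKO UT and 3.996 and 3.88 in ATF6bKO DSS. In complex I it was Ndufv2 (0.55, adjusted p = 0.172), in complex III Uqcrb (-0.59, adjusted p = 0.194), in complex IV Cox8b (-0.72, adjusted p = 0.309) and in complex V Atp5g1 (0.36, adjusted p = 0.121). With normexp background correction 14 were called, beside 43% of all genes, and with only the 8 knockout arrays in the fit 7, beside 9.13%. Leaving out a WT array of the title UT, either of the 2, gave 10, beside 15.5%. Sdhb differed by 0.58 without ATF6bKO UT replicate 1, and Cox6a2 by -1.59 without ATF6bKO DSS replicate 1.

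**Figure D5:**
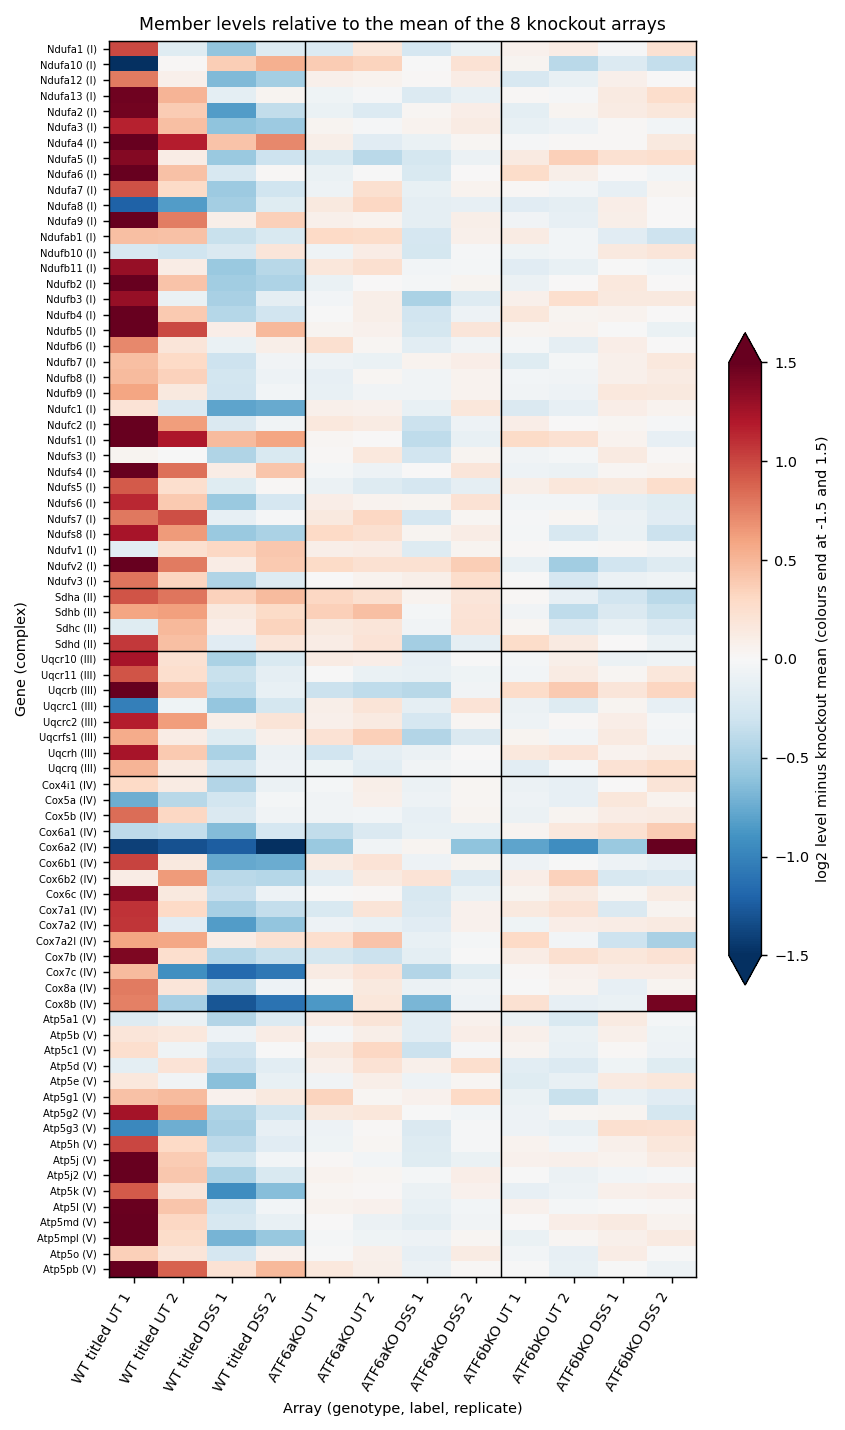
Level of 79 of the 80 tested genes (rows, ordered by complex and symbol) on each of the 12 arrays (columns), as the log2 difference from that gene's mean over the 8 knockout arrays. Red is higher and blue lower. The first column, WT titled UT replicate 1, is red over most rows (median 0.94), and the knockout columns have medians from -0.11 to 0.08. Among them Cox6a2 (3.45) and Cox8b (1.44) are deep red on ATF6bKO DSS replicate 2 and blue on several others, down to -0.93 and -0.87.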

How the data were processed

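Each sample is a single-colour Agilent array scanned and quantified with Agilent Feature Extraction 10.7.1.1, per the submitters' processing notes. The intensity columns used from the authors' deposited scanner files were the processed signal (the setting reported), and the median spot and background signals for normexp (offset 50). The authors' deposited value table was read as log2 values, with column medians from -0.47 to 0.24. Its scale and centring are not given in the sources used here, and its WT columns lack 6422 to 8996 values each. In 8 of its 12 columns the values were those of another array of the same genotype. Its WT columns of samples titled DSS held the arrays titled UT, and the reverse. Its ATF6aKO columns held the other replicate of the same group. Under the sample titles of its columns, its WT differences would thus have the opposite sign. As an alternative it was used under the array whose values each column held (correlations of at least 0.999). Control and outlier spots were left out, spots of a probe averaged, and probes kept if well above background on both arrays of any group. Accessions were matched to RefSeq symbols (25193 of 41174 probes). Group means of all 12 arrays were fitted in limma 3.58.1 under R 4.3.3 (for the DSS response over both knockouts, genotype and treatment on their 8 arrays) and adjusted over all 23239 genes. The fit was tested on simulated data. The genes and lists described were chosen with earlier results of these data known. Named genes are, per comparison and complex, up to 3 called genes each way with the largest difference, those called against their complex's majority, the isoforms of complex IV, the Sdh genes and the largest difference where none was called. Ndufa3, Ndufa10, Ndufs1 in the DSS response, Atp5g2 and Atp5j were named after their values were seen. Alternatives were the background correction, scaling, filter, probe rule, value table, arrays in the fit, replicate block and leaving out each array. The counts and medians include 1 gene that is not reported here.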

Additional observations from a re-analysis of the deposited data

Results flagged for a closer look

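The difference between the WT groups was set against the DSS response of the knockouts, in both readings of the WT labels, in 1 limma fit of the 12 arrays. This comparison was added after the data were seen. With WT by titles, the WT difference minus the mean knockout response was called for 23 of the 80 subunit genes, 1 higher and 22 lower, beside 19.9% of all genes, with a median of -0.78. With the WT labels turned, it was called for 41 of the 80, 40 higher and 1 lower, beside 36.7%, with a median of 0.92. Ndufa3 differed by -1.46 by titles (limma adjusted p = 0.0119) and Ndufs8 by 1.59 with the labels turned (adjusted p = 0.00282). Without WT titled UT replicate 1, which leaves 1 array under that title, the medians of the 80 were smaller in size, at -0.50 and 0.51.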

How the results depend on the processing

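With 2 arrays a group, the number of arrays limits the precision. Of counts of called subunit genes, the DSS response over both knockouts rose from 1 to 5 with normexp, 7 with quantile normalization and 4 with the stricter filter, all lower in DSS. Beside these counts, 36%, 29.4% and 36.5% of all genes were called. Without Cox7a2l the count was 0 of 79. The normexp calls were Cox7a2l, Ndufab1, Ndufs1, Ndufs7 and Sdhd. Quantile normalization gave 1 call in ATF6aKO (Uqcrfs1) and 1 in ATF6bKO (Cox7a2l), beside 6.42% and 14.4% of all genes. For WT, the count was 52 with the sign turned by the treatment field and 0 with the 4 WT arrays alone, and the median was -0.45 with quantile normalization. For ATF6aKO minus WT it was 28 with normexp, 48 in the value table and 7 with only those 8 arrays. Beside these stood 45.8%, 63.4% and 35.3% of all genes. For ATF6bKO minus WT the count was 37, 47 and 12, beside 67.9%, 62.3% and 29.4%. For ATF6aKO minus ATF6bKO the count was 14 with normexp, 1 with median centring, 1 with the stricter filter (Sdhb in both) and 7 with only the 8 arrays. Beside these stood 43%, 4.75%, 6.61% and 9.13% of all genes. The cause was not tested.

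Leaving out 1 array at a time gave 0 to 3 calls over both knockouts, 0 to 2 in ATF6aKO, 0 to 1 in ATF6bKO, 7 to 64 in WT, 0 to 1 for the difference of the responses, 10 to 47 and 16 to 47 for ATF6aKO and ATF6bKO minus WT, and 0 to 10 between the knockouts. Without ATF6bKO DSS replicate 1, the difference of the responses was -4.28 for Cox6a2. In the value table the sign turned for Sdhd (0.20), Sdha (0.21) and Uqcrc2 (0.13) in ATF6aKO minus WT, and for Uqcrc2 (0.13), Cox7a2l (0.14) and Atp5g1 (0.19) in ATF6bKO minus WT. Same-numbered arrays of a genotype deviated with correlations of 0.01 in WT, 0.07 in ATF6aKO and -0.02 in ATF6bKO. With 1 correlation per genotype, this cannot show whether they share more than a number. With the replicate block the WT count was 24 of 80, beside 23.8% of all genes, and the other comparisons stayed within 1.5 times of their counts. Of the 16 subunit genes with several probes, 3 had probes of opposite sign in WT (Atp5b, Ndufab1 and Sdha) and 4 over both knockouts.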
